A study of Mus musculus with 18 samples.

Results

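The genes described here are the 4 members of the TSC22 domain family, Tsc22d1, Tsc22d2, Tsc22d3 and Tsc22d4, together with the glucocorticoid receptor gene Nr3c1, 4 genes known as targets of this receptor (Fkbp5, Per1, Klf9 and Sgk1) and Hsd11b1, which encodes the enzyme that makes active glucocorticoid inside the cell. They were chosen by name. They are 10 of the 38887 genes with values in every library, matched through their gene symbol and Ensembl identifier. RNA was sequenced from bone marrow-derived macrophages (BMMs), grown from mouse bone marrow for 6 days with 50 ng/ml M-CSF, in 3 preparations each of WT, GILZ KO and GILZ TG mice. The cells were left untreated or received 100 ng/ml lipopolysaccharide (LPS), a bacterial wall component that activates macrophages, for 4 h, so that 18 libraries in 6 groups were compared.

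All mice were female and on a C57BL/6J background, between 10 and 23 weeks of age. The WT animals are described as the Cre line itself (B6.129P2-Lyz2tm1(cre)Ifo/J), in which the endogenous Lyz2 promoter drives Cre in the myeloid lineage. In GILZ KO mice this Cre removed exon 6 of Tsc22d3, which is flanked by loxP sites, so any reads on the remaining exons still count for the gene. GILZ TG mice carried a Tsc22d3 (Gilz-1) cDNA in the ROSA26 locus behind a loxP-flanked stop cassette that the same Cre removes. Total expected counts per library ranged from 14583055 to 38557029, and the group medians without treatment were 29235641 in WT, 21796635 in GILZ KO and 23958059 in GILZ TG. After LPS they were 25813123, 15491518 and 33356120 in the same order, so low genes were measured least precisely in LPS-treated GILZ KO cells.

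Glucocorticoids enter the cell and bind the glucocorticoid receptor, which is held ready by Hsp90 and its cochaperones, moves to the nucleus and raises the transcription of genes that carry glucocorticoid response elements. Tsc22d3 encodes the glucocorticoid-induced leucine zipper (GILZ), one of these target genes and a known anti-inflammatory protein in macrophages, where bacterial stimuli lower its level. Proteins of the TSC22 family share a leucine zipper domain and exist in short and long forms from different promoters. No glucocorticoid was added in any group.

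Levels are given in TPM, the abundance of a gene's transcripts relative to all transcripts of the library. The values are scaled by transcript length and can be set side by side between genes. Fold changes and p-values come from the expected counts, tested with edgeR's quasi-likelihood test with Benjamini-Hochberg adjustment over all genes, and a gene passed at an adjusted p below 0.05. For any 1 gene, permuting 3 libraries against 3 gives an exact p of 0.1 at the least, and the p-values used here rest on the spread between these preparations. In bulk RNA, fewer cells of a type and less RNA per cell cannot be told apart.

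The libraries were first checked for their cell type. The macrophage genes Cd68 (group means from 1468 to 1535 TPM without treatment), Csf1r (763.4 to 800.7 TPM) and Adgre1 (517.2 to 546.8 TPM) were high in all 3 genotypes. Of the 7 macrophage markers, Lyz2 went another way. Without treatment WT libraries held 11048, 12070 and 15401 TPM, GILZ KO libraries 28.2, 45.8 and 26.7 TPM and GILZ TG libraries 17.2, 28.7 and 53.1 TPM, a log2 difference of -8.63 and -8.61 against WT (adjusted p = 2.159e-05 and 2.16e-05, edgeR). After LPS the WT libraries held 6766 to 9466 TPM, the GILZ KO libraries 57.6 to 67.7 TPM and the GILZ TG libraries 22.2 to 70.3 TPM. Lyz2 is the locus of the Cre driver. Whether the WT animals carried the Cre allele on 1 chromosome or not at all was not tested. The WT libraries thus differed from both other genotypes at that locus as well as at Tsc22d3, and what each contributes to a comparison with WT cannot be told apart.

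Replicates 1 and 2 of GILZ TG stood apart from the other libraries in both treatments. The summed level of 10 stromal cell markers was 109 and 126 TPM in the untreated libraries of these replicates, led by the collagen gene Col1a1 at 44.2 and 51.3 TPM, whereas GILZ TG replicate 3 held 11.1 TPM and the WT and GILZ KO libraries 5.46 to 23.6 TPM. After LPS the sums were 86.7, 119 and 11.2 TPM in the 3 GILZ TG libraries. Of the 10 markers, 7 reached at least 1 TPM in replicates 1 and 2 in both treatments, against 3 (untreated) and 4 (LPS) in replicate 3, and Lum was at 0 in untreated replicates 2 and 3. The 8 B and plasma cell markers summed to 93.6, 158 and 36.1 TPM in untreated GILZ TG and to between 31.0 and 35.5 TPM in untreated WT and GILZ KO cells. Their most abundant gene in the first pair was Igkc (42.3 and 97.4 TPM), while the B cell gene Pax5 was at 0 in all 3. The 6 markers of the neutrophil lineage, led by S100a9, summed to 140, 368 and 51.2 TPM in untreated GILZ TG, against 18.1 to 44.5 TPM in the other untreated libraries, with Ly6g at 0 in replicates 1 and 3. T cell and erythroid markers stayed below 1 TPM in sum in every library, endothelial markers lay between 3.35 and 4.91 TPM in all untreated libraries, and dendritic cell markers, mostly Itgax, stood at 17.6, 21.1 and 10.6 TPM in untreated GILZ TG against 4.75 to 7.18 TPM elsewhere. Differences of GILZ TG that passed the test or came near the threshold are therefore also given for replicate 3 alone. For the list genes only a lower number of calls is stated. The part of such cells in the results was not tested.

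**Figure D1:**
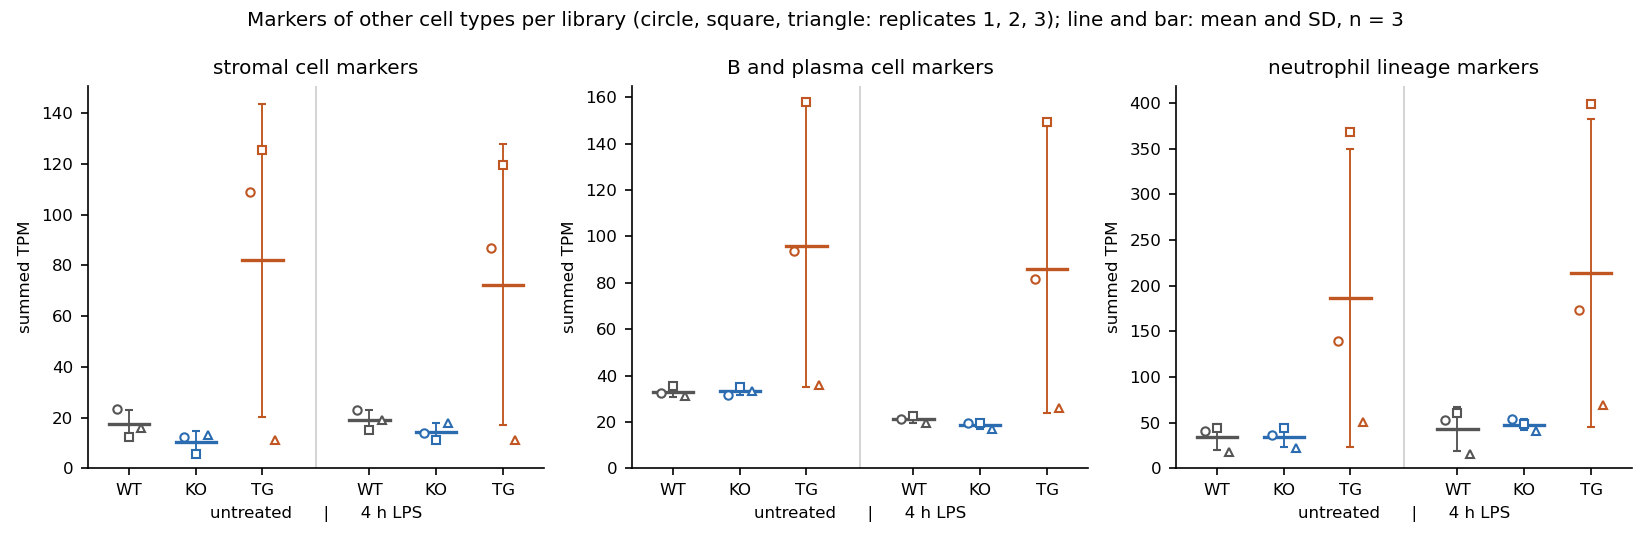
Summed TPM of stromal, B and plasma cell and neutrophil lineage markers in each of the 18 libraries, by genotype and treatment; symbols mark replicates 1 to 3, lines and bars the mean and SD of 3 libraries. GILZ TG replicates 1 and 2 (circle and square) lie above all other libraries in all 3 panels, while GILZ TG replicate 3 lies near WT and GILZ KO for the stromal markers (11.1 TPM untreated).

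Tsc22d3 (ENSMUSG00000031431, chromosome X of GRCm38, 140539528 to 140600659, minus strand) is the gene that was deleted or added. Untreated WT libraries held 15.8, 14.9 and 18.8 TPM, those of GILZ KO 1.89, 2.81 and 2.31 TPM and those of GILZ TG 156, 160 and 152 TPM. After LPS the WT libraries stood at 4.56, 5.81 and 5.09 TPM, whereas GILZ KO stood at 2.96, 3.28 and 2.50 TPM and GILZ TG at 127, 141 and 127 TPM. The 3 genotypes did not overlap in either treatment. The mean level in GILZ KO was 14.2% of that in WT without treatment but 56.5% after LPS, and that in GILZ TG was 9.45 times the WT level without treatment and 25.6 times after LPS. The counts behind the lowest values were 53 to 70 reads in untreated and 45 to 74 in LPS-treated GILZ KO libraries.

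In the test on counts, Tsc22d3 was lower in untreated GILZ KO than in WT (log2 fold change -2.74, SE 0.14, adjusted p = 2.159e-05, edgeR) and higher in GILZ TG than in WT without treatment (2.63, SE 0.11, adjusted p = 3.727e-06) and after LPS (4.07, SE 0.11, adjusted p = 1.043e-08). Between GILZ KO and GILZ TG the log2 difference was -5.37 without treatment and -4.76 after LPS (adjusted p = 3.137e-08 and 5.364e-09). LPS-treated GILZ KO and WT cells differed by -0.69 on the log2 scale, which missed the threshold (95% interval -1.0 to -0.39, unadjusted p = 0.0004028, adjusted p = 0.1497). It passed with DESeq2 (adjusted p = 0.00702) and with no low-count filter (adjusted p = 0.01393). With GILZ TG replicate 3 alone, the differences from WT were 2.66 without treatment and 4.09 after LPS, close to those with all 3 (adjusted p = 0.0002116 and 6.33e-07), and those between GILZ KO and GILZ TG were -5.40 and -4.78 (adjusted p = 3.813e-06 and 4.513e-07).

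The response of Tsc22d3 to LPS also differed between the genotypes. In WT it fell, with a log2 fold change of -1.1 (SE 0.12, adjusted p = 5.055e-07, edgeR), or -1.78 when libraries were scaled by their totals alone. In TPM, which is not centred on most genes either, the WT mean of Tsc22d3 fell to 31.2% of its untreated level. In GILZ KO its log2 fold change was 0.92 (SE 0.18, adjusted p = 0.0001863), a direction that held with other scalings but lost the test when libraries were scaled by their totals alone (0.29, adjusted p = 0.1419) or on the log2(TPM + 1) scale (0.23, adjusted p = 0.0666). In GILZ TG the value was 0.33 (adjusted p = 0.007581), which turned to -0.34 with library totals and to -0.24 on both log2 TPM scales, and did not pass with GILZ TG replicate 3 alone (0.34, adjusted p = 0.1575). The difference of the responses moved little with this scaling. It was 2.02 between GILZ KO and WT (SE 0.22, adjusted p = 0.0007823) and 1.43 between GILZ TG and WT (SE 0.16, adjusted p = 0.001394), and 2.06 and 1.44 with library totals. Between GILZ KO and GILZ TG it was 0.59 (95% interval 0.16 to 1.02, adjusted p = 0.2799). With GILZ TG replicate 3 alone, the difference from WT was 1.44, with an adjusted p of 0.2808. The share of all genes whose response differed was 0.0152% for GILZ KO against WT, 0.00759% for GILZ TG against WT and 0.121% for GILZ KO against GILZ TG. Of the 9 genes that were tested here, Tsc22d3 was the only one called in the first and the second comparison, and none was called in the last. In that last comparison, 5 of the 9 had an unadjusted p below 0.05, as did 9.92% of all genes. DESeq2 called 2 of the 9, Tsc22d1 and Sgk1, where it called 0.69% of all genes.

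The mean length of the transcripts assigned to Tsc22d3, weighted by their abundance, moved with genotype too. It was 1968, 1971 and 1962 bases in untreated WT, 2265, 2102 and 2069 bases in GILZ KO and 1306, 1307 and 1369 bases in GILZ TG. After LPS the ranges were 1866 to 1966, 2058 to 2126 and 1254 to 1308 bases. The groups did not overlap, with the shortest transcripts in GILZ TG and the longest in GILZ KO. No test was made on lengths. Since TPM divides by this length and the count does not, the ratio of GILZ TG to WT is larger in TPM (9.45) than in normalized counts (6.18).

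**Figure D2:**
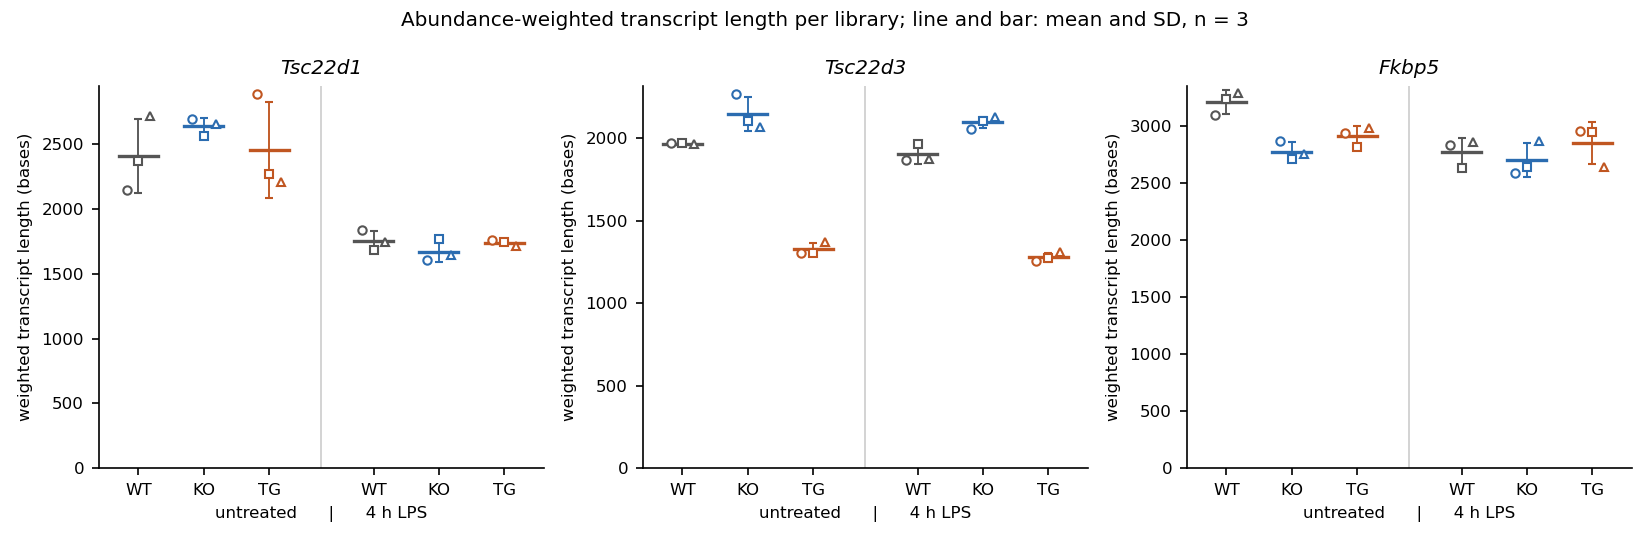
Abundance-weighted transcript length in bases of Tsc22d1, Tsc22d3 and Fkbp5 in each library, by genotype and treatment, with the mean and SD of 3 libraries. For Tsc22d1 the untreated libraries (2144 to 2882 bases) lie above all LPS libraries (1606 to 1837 bases), and for Tsc22d3 the GILZ TG libraries lie lowest (1254 to 1369 bases).

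The receptor gene Nr3c1 (ENSMUSG00000024431) had the largest rise after LPS among these genes. Untreated WT libraries gave 28.1, 25.2 and 20.9 TPM, those of GILZ KO 26.4, 27.4 and 27.0 TPM and those of GILZ TG 24.1, 24.2 and 22.3 TPM. After LPS the levels were 85.7, 78.2 and 88.2 TPM in WT. For GILZ KO they were 78.4, 86.7 and 75.7 TPM, and for GILZ TG 63.0, 72.0 and 79.5 TPM. Every LPS library lay above every untreated one, while the genotypes overlapped in part. The log2 fold change to LPS was 2.34 in WT, 2.18 in GILZ KO and 2.18 in GILZ TG (SE 0.09 each, adjusted p = 3.262e-13, 9.462e-13 and 7.863e-13, edgeR), and with library totals 1.66, 1.54 and 1.5. No genotype difference passed the test. The largest was that of GILZ TG against WT after LPS (-0.22, 95% interval -0.43 to -0.01, adjusted p = 0.2993). It passed without GILZ TG replicate 3 (-0.33, adjusted p = 0.02346) and was -0.01 with that replicate alone.

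Hsd11b1 (ENSMUSG00000016194, chromosome 1, 193221634 to 193264075), whose enzyme reactivates cortisone and its mouse counterpart, was close to the limit of detection. Its level ranged from 0.08 to 0.79 TPM over the 18 libraries, on 1 to 16 counts each, and all 6 groups overlapped. It was left out of the main tests by the filter on low counts. With no such filter its log2 fold change to LPS was 0.77 in WT, 0.39 in GILZ KO and 0.79 in GILZ TG. None passed (SE 0.71, 0.79 and 0.63, adjusted p = 0.4491, 0.8019 and 0.3798, edgeR). At these counts a change by genotype or LPS was measured poorly. Of 5 further genes of glucocorticoid supply, 3 were tested. The drug and steroid export pumps Abcb1a and Abcb1b were higher after LPS in every genotype (log2 fold changes of 2.36, 2.24 and 2.77 for Abcb1a and 0.67, 0.57 and 0.88 for Abcb1b in WT, GILZ KO and GILZ TG). H6pd, which feeds the Hsd11b1 reaction with its cofactor, was lower in WT (-0.50) and GILZ KO (-0.75) and did not pass in GILZ TG (-0.28, adjusted p = 0.103, edgeR). With library totals 1, 1 and 2 of these 3 genes were higher and 1 in each genotype lower, while 84.2%, 82.7% and 83.8% of all genes were called, most of them lower.

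Fkbp5 (ENSMUSG00000024222, chromosome 17, 28399094 to 28517527) encodes a cochaperone that lowers the affinity of the receptor for its hormone and is itself induced by it. It was the second most abundant of the 10 genes in untreated WT and GILZ KO cells, after Tsc22d4. Untreated WT libraries held 55.4, 54.8 and 46.2 TPM, GILZ KO libraries 56.9, 59.1 and 61.4 TPM and GILZ TG libraries 56.3, 60.9 and 51.5 TPM. After LPS they were 21.9, 28.3 and 29.4 TPM, 26.8, 27.2 and 21.1 TPM, and 22.9, 28.3 and 26.9 TPM. All LPS libraries lay below all untreated ones, and the genotypes overlapped after LPS. Fkbp5 fell by 0.56 in WT, 0.65 in GILZ KO and 0.51 in GILZ TG on the log2 scale (SE 0.09 each, adjusted p = 2.591e-05, 6.123e-06 and 6.348e-05, edgeR), and with library totals its log2 fold change was -1.24, -1.29 and -1.18. The 3 untreated GILZ KO libraries lay above WT in TPM but not in the test on counts (log2 fold change -0.07, 95% interval -0.19 to 0.05). The transcripts assigned to Fkbp5 were longer in untreated WT (3095 to 3293 bases) than in the other untreated libraries (2706 to 2983 bases).

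Per1 and Klf9 are both direct targets of the receptor, and Per1 encodes a repressor of the circadian clock. Per1 (ENSMUSG00000020893, chromosome 11, 69095217 to 69109960) had untreated levels of 15.2, 13.2 and 9.05 TPM (WT), 11.3, 13.9 and 15.2 TPM (GILZ KO) and 18.8, 12.1 and 11.9 TPM (GILZ TG). After LPS its levels were 6.36, 3.08 and 5.43 TPM, 6.44, 5.07 and 5.81 TPM, and 4.13, 3.89 and 5.53 TPM. Its spread within a group was wide and the genotypes overlapped, but no LPS library reached an untreated one. Per1 fell by 0.86 in WT, 0.50 in GILZ KO and 1.11 in GILZ TG on the log2 scale (adjusted p = 0.0001088, 0.01038 and 7.237e-06, edgeR), with values of -1.54, -1.13 and -1.78 under library totals. The call in GILZ KO was lost without LPS-treated GILZ KO replicate 1 (adjusted p = 0.05009) or 2 (adjusted p = 0.05495). After LPS, Per1 was 0.58 higher in GILZ KO than in GILZ TG (95% interval 0.23 to 0.93), which missed the threshold (adjusted p = 0.0783). The difference passed with the replicate number as a block and without GILZ TG replicate 3 (adjusted p = 0.03685), and was 0.44 with that replicate alone.

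Klf9 (ENSMUSG00000033863, chromosome 19, 23141226 to 23168134), a zinc finger repressor, was low throughout. Untreated libraries gave 2.46, 2.98 and 2.39 TPM (WT), 2.68, 2.83 and 3.13 TPM (GILZ KO) and 3.41, 3.46 and 2.70 TPM (GILZ TG). After LPS it stood at 0.99, 0.97 and 1.06 TPM, at 0.99, 0.89 and 0.71 TPM and at 1.34, 1.48 and 1.2 TPM in this order. The LPS libraries of GILZ TG all lay above those of the other genotypes. Klf9 fell in all 3 genotypes (log2 fold changes of -0.74, -1.09 and -0.61, adjusted p = 0.0001949, 6.608e-06 and 0.0007891, edgeR, and -1.42, -1.72 and -1.28 with library totals), although with GILZ TG replicate 3 alone the last value was -0.50 with an adjusted p of 0.1263. The difference between GILZ KO and GILZ TG after LPS was -0.64 (95% interval -1.04 to -0.23, adjusted p = 0.09164). It passed without GILZ TG replicate 3 (-0.68, adjusted p = 0.04969) and when all 18 libraries were fitted together (adjusted p = 0.02416), and was -0.51 with that replicate alone (adjusted p = 0.5589).

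Sgk1 (ENSMUSG00000019970, chromosome 10, 21882184 to 21999903), a kinase that acts on ion channels and Foxo factors, went the other way from the other targets. Without treatment the WT libraries gave 25.7, 25.8 and 24.2 TPM, GILZ KO 28.7, 28.1 and 26.1 TPM and GILZ TG 26.2, 31.8 and 30.1 TPM. With LPS the values were 57.7, 65.1 and 61.3 TPM for WT, 54.8, 54.4 and 53.8 TPM for GILZ KO and 80.6, 90.8 and 67.8 TPM for GILZ TG. After LPS the genotypes were ordered without overlap, GILZ KO lowest and GILZ TG highest. Sgk1 rose by 1.96 in WT, 1.69 in GILZ KO and 2.10 in GILZ TG (SE 0.08 each, adjusted p = 4.981e-13, 5.064e-12 and 1.952e-13, edgeR), and by 1.29, 1.05 and 1.43 with library totals.

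Among LPS-treated cells GILZ KO had less Sgk1 than GILZ TG (log2 fold change -0.49, SE 0.09, adjusted p = 0.01685, edgeR). The call was lost without GILZ KO replicate 1 or 3 or without GILZ TG replicate 1 or 2, with log2 fold changes between -0.54 and -0.46 over the 6 libraries left out in turn and the highest adjusted p at 0.09435. With GILZ TG replicate 3 alone the difference was -0.42 (adjusted p = 0.2358). GILZ TG against WT gave 0.37 (95% interval 0.18 to 0.55, adjusted p = 0.09756), which passed with DESeq2 (adjusted p = 0.01135) and was 0.29 with replicate 3 alone (adjusted p = 0.5897), and GILZ KO against WT gave -0.13 (95% interval -0.31 to 0.06, adjusted p = 0.6764). The difference of the LPS responses between GILZ KO and GILZ TG was -0.41 (95% interval -0.65 to -0.18, adjusted p = 0.1537). It passed with the replicate number as a block (-0.41, adjusted p = 0.04334) and with DESeq2 (adjusted p = 0.0378), and was -0.36 with GILZ TG replicate 3 alone.

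Among the promoter windows of these genes that were searched, only 1 of Sgk1 held a glucocorticoid response element in the letters given below. It is shown with a stretch of Per1, a pair chosen because their levels went apart after LPS. Whether the motifs bear on these levels was not tested. RefSeq promoter windows, from 250 bases before to 50 after a transcript start in GRCm38.p6, were used for 7 of the 10 genes, with 19 windows. Nr3c1 was left out of this search beforehand, and no window was found for Tsc22d2 or Tsc22d4. The windows were searched on both strands for the full element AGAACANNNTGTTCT and for its relaxed form GNACANNNTGTNC, which lies inside the full one. The E-box CACGTG, bound by clock factors, was searched for as well. Of 32851 mouse promoter windows, 3 (0.00913%) held the full element, 156 (0.475%) the relaxed form and 2349 (7.15%) the E-box. The full and the relaxed form matched at the same place in 1 of the 6 Sgk1 windows and in no window of the other genes searched. Elements outside these windows or with other letters were not sought, so a gene without a match may still carry one. An E-box was found in the same Sgk1 window and in windows of Per1, Fkbp5 and Tsc22d1, and it does not overlap the response element. The Sgk1 stretch is chr10:21993641-21993775 on the plus strand, within introns of 5 longer Sgk1 transcripts. The Per1 stretch is chr11:69098753-69098818 on the plus strand, within an intron of 1 other Per1 transcript. Both lie upstream of a transcript start. Capitals mark the response element in Sgk1 and the E-box in Per1. A match describes these letters and is no evidence of binding.
Sgk1: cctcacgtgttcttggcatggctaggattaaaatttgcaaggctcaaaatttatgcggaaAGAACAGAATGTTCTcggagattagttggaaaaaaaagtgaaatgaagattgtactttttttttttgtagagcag
Per1: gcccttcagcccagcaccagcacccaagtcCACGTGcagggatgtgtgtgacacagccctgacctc

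The other TSC22 genes differ strongly in abundance. Tsc22d4 (ENSMUSG00000029723, chromosome 5, 137745730 to 137768450) was the most abundant of the 4 in WT and GILZ KO. Untreated libraries held 123, 112 and 124 TPM (WT), 105, 124 and 123 TPM (GILZ KO) and 124, 119 and 128 TPM (GILZ TG). After LPS they were 56.1, 46.3 and 63.6 TPM, 55.0, 52.9 and 61.4 TPM, and 56.1, 54.8 and 51.3 TPM. All LPS libraries lay below all untreated ones, and the genotypes overlapped throughout. Tsc22d4 fell by 0.48 in WT, 0.41 in GILZ KO and 0.54 in GILZ TG on the log2 scale (SE 0.07 each, adjusted p = 1.123e-05, 6.568e-05 and 2.559e-06, edgeR), with values of -1.16, -1.05 and -1.21 under library totals. None of its genotype differences passed, and the 95% intervals against WT lay between -0.23 and 0.19 in both treatments.

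Tsc22d2 (ENSMUSG00000027806, chromosome 3, 58414715 to 58466783) was low and steady, between 3.83 and 4.73 TPM in the 9 untreated libraries and between 3.17 and 3.88 TPM in the 9 after LPS. Untreated and LPS libraries overlapped in WT (3.83 to 4.61 and 3.17 to 3.88 TPM) and not in GILZ KO (4.07 to 4.26 and 3.37 to 3.88 TPM) or GILZ TG (4.48 to 4.73 and 3.71 to 3.83 TPM). In the test its log2 fold change to LPS was 0.38 in WT, 0.45 in GILZ KO and 0.34 in GILZ TG (adjusted p = 0.0001942, 4.59e-05 and 0.0006064, edgeR), but with library totals it was -0.30, -0.18 and -0.34, so its direction depends on the scaling.

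Tsc22d1 (ENSMUSG00000022010, chromosome 14, 76414961 to 76507765), the founding member of the family, differed by genotype in untreated cells. WT libraries gave 16.9, 13.8 and 10.1 TPM, GILZ KO 11.6, 12.2 and 11.8 TPM and GILZ TG 16.4, 19.2 and 17.1 TPM. All GILZ TG libraries lay above all GILZ KO libraries, and the WT libraries ran from below the GILZ KO range into the GILZ TG range. GILZ KO had less Tsc22d1 than GILZ TG (log2 fold change -0.49, SE 0.09, adjusted p = 0.02283, edgeR), whereas GILZ TG against WT missed the threshold (0.41, 95% interval 0.20 to 0.62, adjusted p = 0.09369, but 0.02401 with DESeq2 and 0.01159 without GILZ TG replicate 3) and GILZ KO against WT gave -0.08 (95% interval -0.29 to 0.13). The call between GILZ KO and GILZ TG was lost when any GILZ KO replicate or GILZ TG replicate 1 or 2 was left out. With GILZ TG replicate 3 alone the difference from GILZ KO was -0.32 (adjusted p = 0.2134) and that from WT 0.24 (adjusted p = 0.5839), although that library (17.1 TPM) lay between the other 2 of its group in TPM. The part of the stromal markers in replicates 1 and 2 was not tested.

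After LPS, Tsc22d1 stood at 16.2, 21.0 and 21.3 TPM (WT), 24.9, 18.6 and 20.5 TPM (GILZ KO) and 16.2, 16.3 and 18.9 TPM (GILZ TG), and the groups overlapped. Relative to most genes its log2 fold change was 0.70 in WT and 0.80 in GILZ KO (adjusted p = 1.243e-05 and 4.004e-06, edgeR), but with library totals it was 0.02 and 0.16 and no longer passed. In GILZ TG it was 0.08 (95% interval -0.14 to 0.30, adjusted p = 0.5006), -0.59 with library totals, and 0.43 with replicate 3 alone (adjusted p = 0.04144). The difference of the responses between GILZ KO and GILZ TG was 0.71 (95% interval 0.40 to 1.03, adjusted p = 0.06331). It passed with DESeq2 (adjusted p = 0.003491) and with no low-count filter (adjusted p = 0.03299), and was 0.37 with GILZ TG replicate 3 alone (adjusted p = 0.6181). The transcripts assigned to Tsc22d1 were shorter after LPS in every library, 1606 to 1837 bases against 2144 to 2882 bases without treatment. The annotation holds 16 Tsc22d1 transcripts from 398 to 4999 bases.

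As a share of the summed TPM of the 4 TSC22 genes, Tsc22d4 made up 77.7% ± 1.28 in untreated WT, 86.4% ± 0.80 in GILZ KO and 41.0% ± 1.54 in GILZ TG (SD, n = 3). Tsc22d3 made up 10.7%, 1.72% and 51.7% in the same order and 6.23%, 3.48% and 63.7% after LPS. In GILZ TG, Tsc22d3 came first among the 4 genes in both treatments. Tsc22d1 took 8.85% in WT without treatment and 23.5% after LPS. Without treatment the summed level was 154 ± 8.12 TPM for WT, 135 ± 11.2 TPM for GILZ KO and 302 ± 1.22 TPM for GILZ TG (SD, n = 3), and after LPS 83.6, 84.3 and 207 TPM.

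The runs of identical bases that the 4 genes share are short, which bears on how well reads can be assigned. Similarity with mismatches was not measured. The longest run of identical bases between annotated Tsc22d1 and Tsc22d2 transcripts was 32 bases and that between Tsc22d1 and Tsc22d3 was 16 bases, both inside the coding part of each gene. All such runs were shorter than the 75 nt reads, and the expected counts of the 10 genes were whole numbers (within 0.005) in all 18 libraries but for Tsc22d3, with 17 of 18. The runs are printed to show what the family shares, in lower case throughout.
Tsc22d1 and Tsc22d2: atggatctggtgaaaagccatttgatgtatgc
Tsc22d1 and Tsc22d3: aactcccagctggagc

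**Figure D3:**
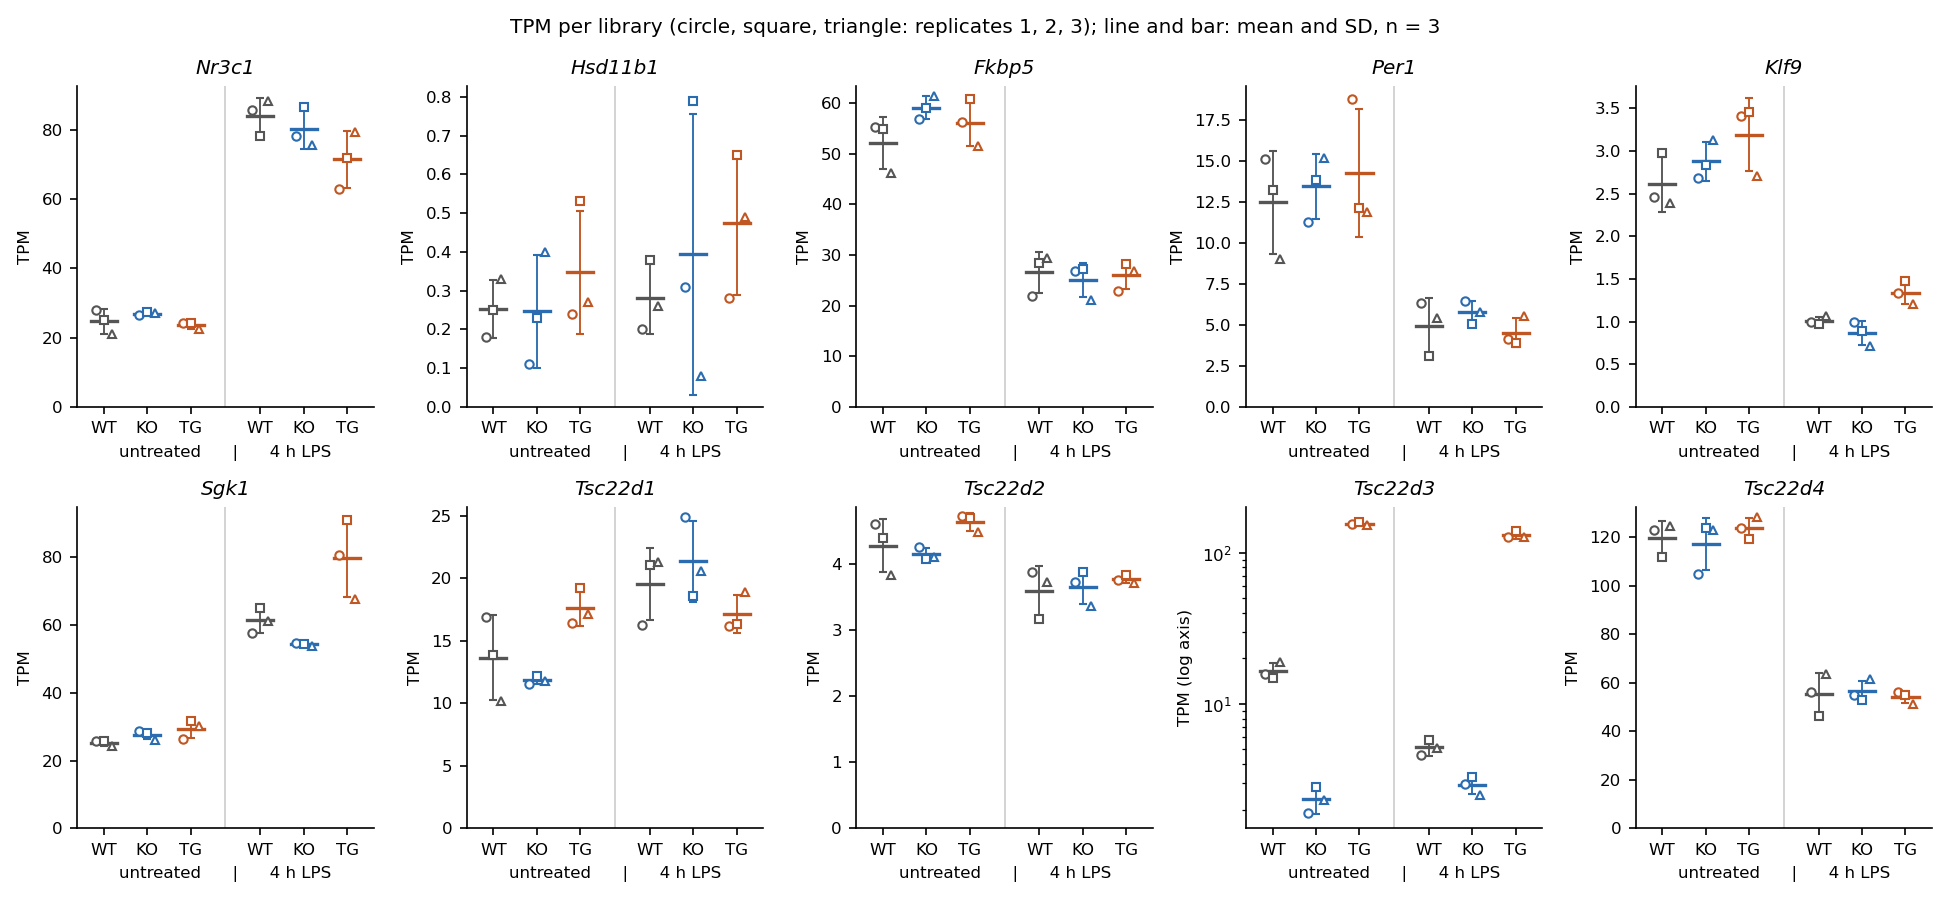
TPM of the 10 genes in each library, by genotype and treatment, with the mean and SD of 3 libraries; the axis of Tsc22d3 is logarithmic, the others start at 0. Nr3c1 and Sgk1 lie higher and Fkbp5, Per1, Klf9 and Tsc22d4 lower after LPS in all genotypes, while Tsc22d3 in WT stands at 4.56 to 5.81 TPM after LPS.

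Set side by side within a group, the order of levels changed with LPS. In untreated WT it ran from Tsc22d4 (119.8 ± 6.89 TPM, SD, n = 3) and Fkbp5 (52.2 ± 5.12) over Sgk1 (25.2 ± 0.87) and Nr3c1 (24.7 ± 3.59) to Tsc22d3 (16.5 ± 2.08), Tsc22d1 (13.6 ± 3.39) and Per1 (12.5 ± 3.12). Sgk1 and Nr3c1, Tsc22d3 and Tsc22d1, and Tsc22d1 and Per1 differed by less than their spread. Below them stood Tsc22d2 (4.28 ± 0.40), Klf9 (2.61 ± 0.32) and Hsd11b1. After LPS, Nr3c1 (84.1 ± 5.2 TPM), Sgk1 (61.4 ± 3.67) and Tsc22d4 (55.3 ± 8.68) led, the latter pair within their spread, before Fkbp5 (26.6 ± 4.06), Tsc22d1 (19.5 ± 2.85), Tsc22d3 (5.15 ± 0.63), Per1 (4.96 ± 1.69) and Tsc22d2 (3.59 ± 0.37). Neither Tsc22d3 and Per1 nor Per1 and Tsc22d2 differed beyond their spread.

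Over all 9 genes tested, 9 were called after LPS in WT (4 higher, 5 lower), 9 in GILZ KO (5 higher, 4 lower) and 8 in GILZ TG (4 of each). Most of all genes were called too, 68.6% in WT, 68.5% in GILZ KO and 68.7% in GILZ TG, so a call after LPS sets a gene apart little. In GILZ TG, each of the 9 kept the sign of its log2 fold change with replicate 3 alone, with values from -0.79 (Per1) to 2.43 (Nr3c1). The median log2 fold change of the 9 genes was -0.48 in WT, 0.45 in GILZ KO and 0.08 in GILZ TG, against -0.02 for all genes in each genotype. These values use edgeR's TMM scaling, which centres most genes at no change. With library totals alone the median of all genes moved to -0.70 in WT, -0.66 in GILZ KO and -0.69 in GILZ TG. That of the 9 genes moved to -1.16, -0.18 and -0.59. The share of higher genes among all called fell from 48.9%, 48.4% and 48.9% to 18.9%, 18.8% and 18.5%. Relative to either scale, Nr3c1 and Sgk1 rose and Fkbp5, Per1, Klf9 and Tsc22d4 fell in all 3 genotypes.

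**Figure D4:**
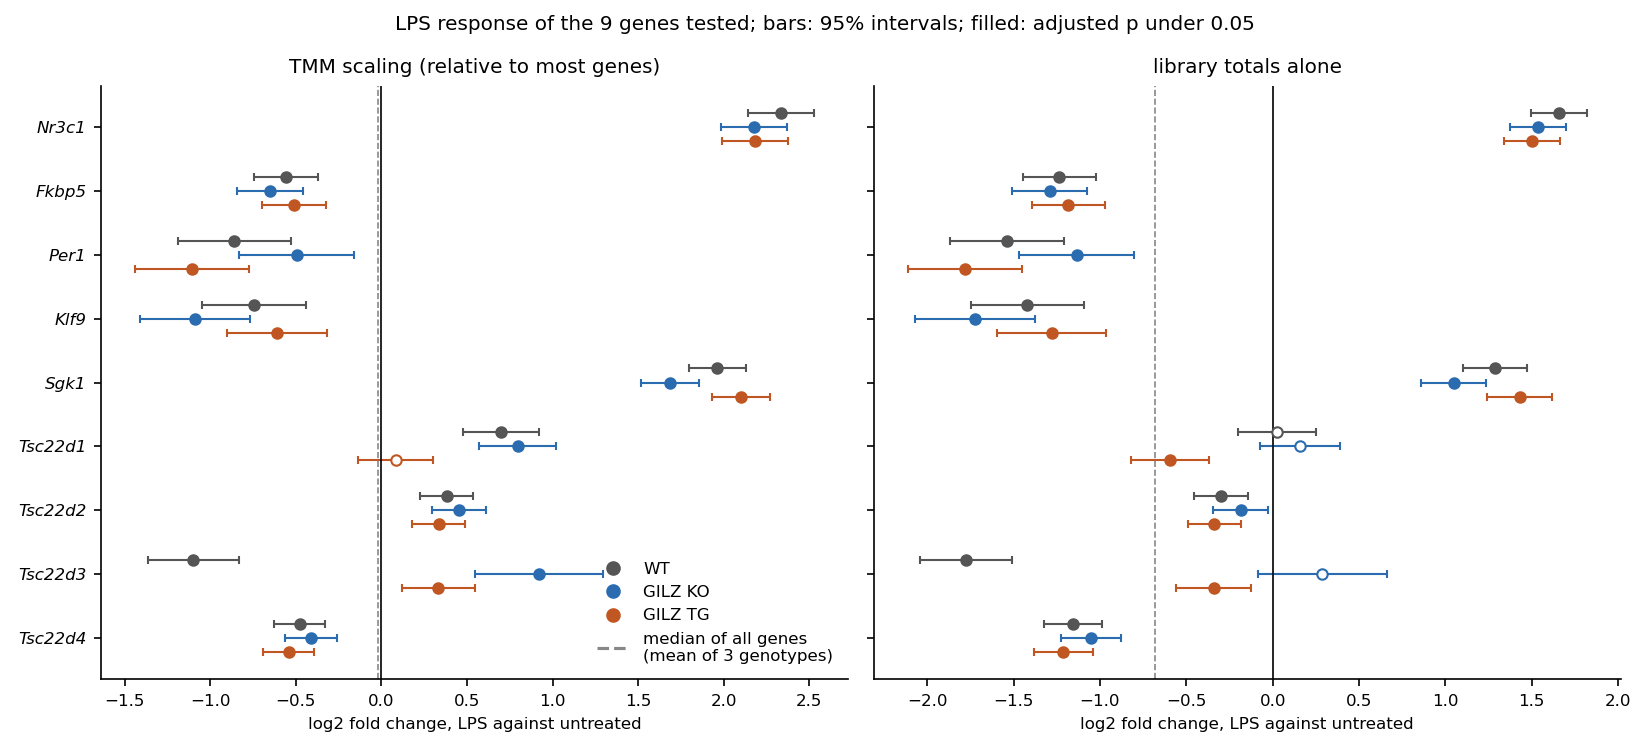
Log2 fold change of 9 genes from untreated to LPS-treated cells in WT, GILZ KO and GILZ TG, with 95% intervals, under TMM scaling (left) and with library totals alone (right); filled points have an adjusted p below 0.05, solid lines mark no change and dashed lines the median of all genes. Nr3c1 and Sgk1 lie right of 0 in both panels, whereas Tsc22d2 (0.38 and -0.30 in WT) and, in GILZ TG, Tsc22d3 and Tsc22d1 change sides.

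Between genotypes few of these genes were called. In untreated cells it was 1 of 9 for GILZ KO against WT (Tsc22d3), 1 for GILZ TG against WT (Tsc22d3) and 2 for GILZ KO against GILZ TG (Tsc22d3 and Tsc22d1), where 0.0951%, 0.642% and 4.94% of all genes were called. After LPS the numbers were 0, 1 (Tsc22d3) and 2 (Tsc22d3 and Sgk1), against 0.0822%, 0.46% and 2.6% of all genes. In the comparison with 0, edgeR gave 2 of the 9 an unadjusted p below 0.05, Tsc22d3 and Per1, against 9.63% of all genes. DESeq2 called 1 of the 9, Tsc22d3, against 0.465% of all genes. The median log2 difference of the 9 genes lay between -0.10 and 0.11 over the 6 comparisons. Both shares for GILZ TG rest on which of its preparations are used. Without replicate 3 of GILZ TG, 3 of the 9 genes were called against WT and 4 against GILZ KO after LPS, where 8.52% and 11.2% of all genes were. With it alone it was 1 in each, against 0.341% and 0.27% of all genes.

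**Figure D5:**
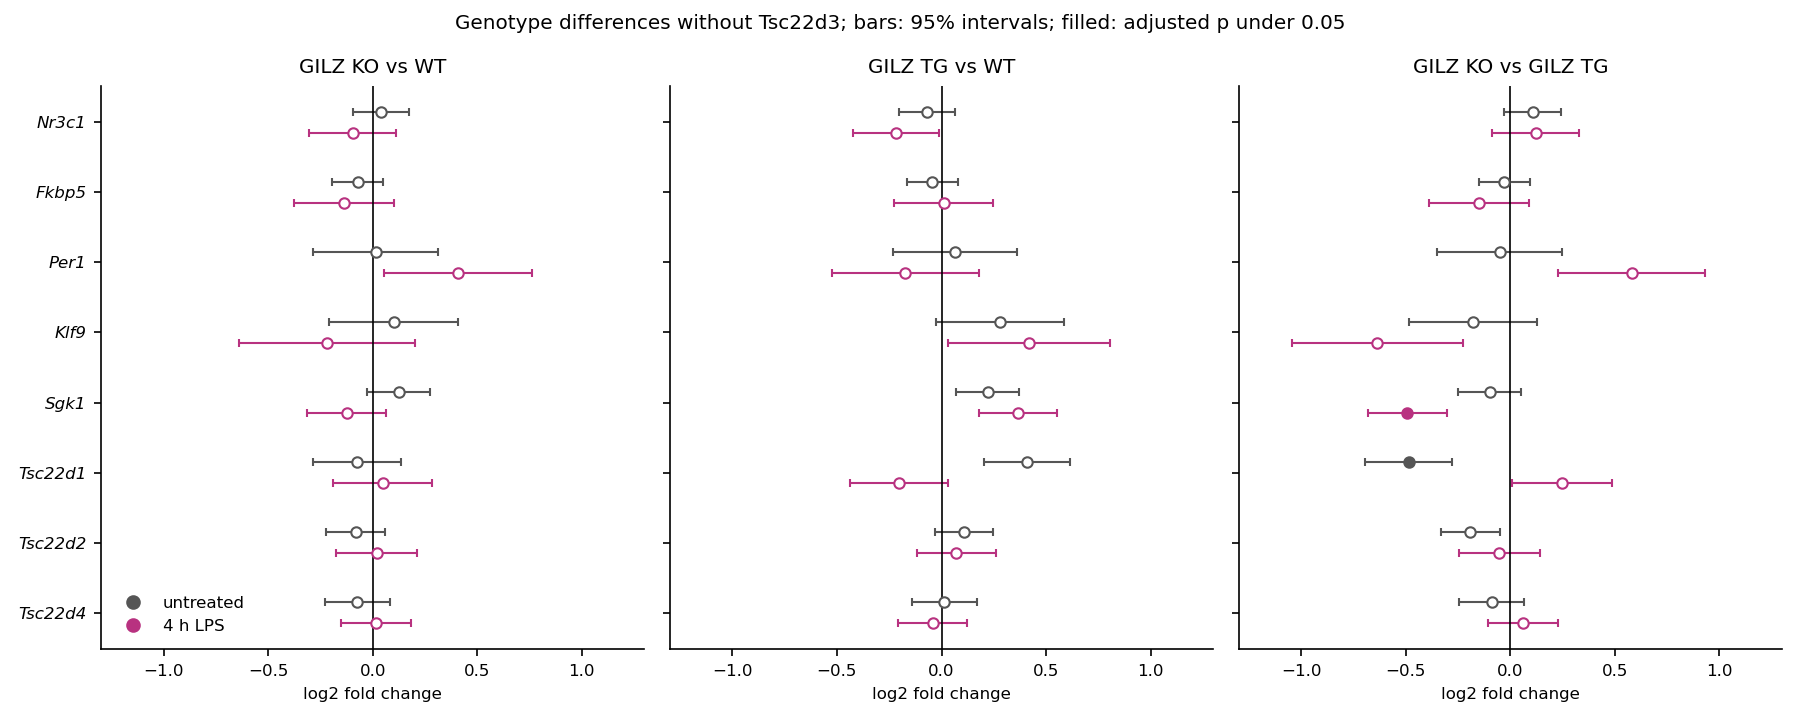
Log2 differences between genotypes of 8 genes, without Tsc22d3, in untreated (grey) and LPS-treated cells (magenta), with 95% intervals; filled points have an adjusted p below 0.05. The filled points are Tsc22d1 in untreated cells (-0.49) and Sgk1 after LPS (-0.49), both in GILZ KO against GILZ TG.

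Genes around the receptor and the TSC22 proteins were followed in 8 lists of 75 genes. Between GILZ KO and WT none of their tested genes was called, with 0 of 68 in untreated and 0 of 64 in LPS-treated cells by edgeR. At an unadjusted p below 0.05 there were 6 and 11, where 9.6% and 9.63% of all genes were, and DESeq2 called 1 in each, with 0.375% and 0.465% of all genes. Between GILZ TG and WT the count was 0 of 68 without treatment, where 0.642% of all genes were called. There were 9 at an unadjusted p below 0.05, against 14.1% of all genes, and 3 with DESeq2, against 1.54%. After LPS it was 1 of 64, where 0.46% of all genes were called. That gene was Stk39, a kinase of the WNK pathway, at 2.0, 3.23 and 1.69 TPM in GILZ TG and 0.65 to 1.02 TPM in WT (log2 fold change 1.23, adjusted p = 0.04361, edgeR). No list gene was called there with GILZ TG replicate 3 alone.

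Between GILZ KO and GILZ TG 5 of 68 list genes were called in untreated cells, where 4.94% of all genes were. Foxo3 (0.26), which drives Tsc22d3 transcription, Abcb1b (0.30) and the clock output factor Tef (0.39) were higher in GILZ KO, and the clock repressor Bhlhe40 (-0.40) and Rgs2 (-0.48), which dampens G protein signalling, were lower (log2 differences, adjusted p between 0.01443 and 0.0495, edgeR). After LPS 3 of 64 were called, all lower in GILZ KO, against 2.6% of all genes. Counts this small lie near the share over all genes. They were Stk39 (-1.75, adjusted p = 0.007849), Rgs2 (-1.15, adjusted p = 0.004955) and the repressor Bcl6 (-0.99, adjusted p = 0.04716). Rgs2 stood at 338, 286 and 284 TPM in LPS-treated GILZ TG cells, while WT held 207, 188 and 169 TPM and GILZ KO 114, 177 and 139 TPM. The GILZ TG libraries lay above the others. With GILZ TG replicate 3 alone, fewer of the list genes and fewer of all genes were called in both treatments. For the difference of the LPS responses edgeR called none of 69 in any pair of genotypes. At an unadjusted p below 0.05 there were 7, 2 and 13, against 6.36%, 3.09% and 9.92% of all genes. DESeq2 called 0, 0 and 1, against 0.0972%, 0.00926% and 0.69% of all genes.

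After LPS the lists differed in direction. Their counts stand against 68.6% of all genes called in WT, 4415 higher and 4622 lower of 13169, with 4366 and 4658 in GILZ KO and 4425 and 4620 in GILZ TG. With library totals 2100, 2046 and 2040 of all genes were higher and 8990, 8848 and 9001 lower, beside which the counts under that scaling stand. The Foxo genes Foxo1, Foxo3 and Foxo4, which activate Tsc22d3 transcription, were lower in every genotype, with log2 fold changes in WT of -1.33, -1.17 and -1.42 (adjusted p at most 5.174e-07, edgeR), and they stayed lower with library totals. Of 12 circadian clock genes tested, 9 were lower and 1 higher in WT, 8 and 0 in GILZ KO, and 9 and 1 in GILZ TG. Per2 (-2.61 in WT) and Per3 (-2.45), the relatives of Per1, fell most, before Tef (-2.03) and Bhlhe41 (-1.97), while Nr1d2 rose (0.62 in WT). With library totals 11, 12 and 11 of the 12 were lower and none higher. The median of the clock list was -1.02, -0.98 and -1.16 against -0.02 for all genes.

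Among 18 other glucocorticoid-induced genes 9, 8 and 9 were higher and 4, 3 and 3 lower after LPS in WT, GILZ KO and GILZ TG. The members with the largest rise were Cebpd (3.93 in WT), Zfp36 (3.49), which destabilizes cytokine mRNA, and Nfkbia (2.47), the inhibitor of NF-κB, all of which are also known to be induced by LPS. Zbtb16 went the other way, from 11 to 31 counts in the untreated libraries to 0 or 1 count in the LPS libraries. With library totals 7, 6 and 8 of the 18 were higher and 6, 7 and 7 lower.

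The receptor's partners were mixed. Of 7 chaperones 4, 4 and 3 were higher and 2, 1 and 2 lower, with the cochaperone Stip1 at 0.76 in WT and Fkbp4, the counterpart of Fkbp5, at -0.43. Of 10 coregulators 6, 5 and 7 were higher, among them the corepressor gene Nrip1 (1.17 in WT), and 2 in each genotype were lower, and with library totals 1, 1 and 2 were higher and 4, 8 and 4 lower. The chaperones turned in the same way, with 0, 1 and 1 higher and 6 lower in each genotype. Among 14 partners of the TSC22 proteins 7, 7 and 8 were higher and 5, 6 and 5 lower, with Stk39 (2.12 in WT) and Mdm2 (1.25) on one side and Nrbp2 (-1.24) on the other, and with library totals 3, 3 and 4 were higher and 9 in each genotype lower. The Sgk1 relative Sgk3 (2.43 in WT) and the Sgk1 substrate Nedd4l (0.89) were higher in every genotype, and with library totals 1, 1 and 2 of this pair.

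Over the 18 libraries, the genes with the most similar pattern were sought by Pearson's r of log2 counts scaled by library size. For Nr3c1 they were Plagl2 (0.999), Naa25 (0.998) and Susd6 (0.998), for Sgk1 Il10ra, Arid5a and Vopp1 (0.993 each), for Tsc22d4 Pgp (0.983), Ppp1r12c (0.976) and Snx8 (0.975) and for Fkbp5 Rfwd3 (0.98) and Rad18 (0.978). Per1 was most like AI480526 (0.957), Klhdc3 (0.952) and Fem1a (0.951), Klf9 most like Eid2b (0.966), Pcgf2 (0.963) and Mex3b (0.962) and Tsc22d2 most like Slc6a19 (0.972), Crim1 (0.958) and Rhot1 (0.953). These libraries split into untreated and LPS-treated cells, which most of the values share. Tsc22d1 was most like Id3 (0.95), Rab10os (0.916) and the collagen cross-linking enzyme gene Lox (0.913). Tsc22d3, which followed genotype, was most like ENSMUSG00000048149 (0.923), Alkbh6 (0.899) and the immunoglobulin gene Ighg1 (0.894). Among the members themselves, Nr3c1 went with Sgk1 (0.969) and against Tsc22d4 (-0.956), and Tsc22d3 had values between -0.19 and 0.33 with the other 8.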

How the data were processed

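RNA of 18 BMM libraries (poly(A), a stranded kit, reads of 75 nt, RNA integrity number above 9) was mapped by the authors to GRCm38 and quantified with the grape-nf pipeline, after FastQC 0.11.2. The deposited expected counts are estimated reads per gene without normalization, and the deposited TPM is scaled by the authors to transcript length and library total. Between 5.04% and 6.93% of the expected counts per library, zeros included, were not exactly whole as deposited and were rounded. The comparison tables hold the authors' DESeq2 1.40.2 fold changes and p-values of protein-coding genes, of which only identifiers and symbols were used.

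Genes with low counts were removed with filterByExpr, which kept 12621 genes in untreated cells, 12164 after LPS and 13169 over all 18 libraries. TMM scaling and edgeR 4.0.16 (quasi-likelihood fits, R 4.3.3) gave the tests, with the 9 libraries of a treatment in one fit for genotypes and all 18 for LPS responses. P-values were adjusted by Benjamini-Hochberg, with a threshold of 0.05. The procedure was tested on simulated data. Depth ranged from 14583055 to 38557029 counts per library and sets how precisely low genes were measured, and intervals cover 95%.

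The members and lists were chosen with earlier results of these data known. Named were all 10 members, from each list up to 4 genes past the threshold with the largest fold change per comparison, the 3 genes most alike each member, and Lyz2. Where no list gene passed, the rule takes up to 2 with the smallest p, of which only counts are printed here, and for LPS only a part of the list genes is printed. Some genes that the rule names are not reported here. Single marker genes, H6pd, Nr1d2 and the E-box were added with values already seen. Alternatives were DESeq2 1.42.0, its size factors, no filter, limma 3.58.1 on log2(TPM + 1) and log2(TPM + 0.1), a replicate block, other sets of libraries in the fit and each replicate left out. Scaling by library totals and leaving out GILZ TG replicates 1 and 2 were chosen after seeing the data, and the lone sample left in each GILZ TG group is then assumed to vary like the others. Labels do not say whether untreated and LPS libraries of one number share a preparation. Deviations from the group means correlated at 0.245, 0.362 and 0.576 in the 3 pairs of GILZ TG, and a blocked fit changed no call of a member in LPS against untreated GILZ TG cells. Coordinates and transcripts are those of GENCODE M21 and promoter sequences those of RefSeq (GRCm38.p6). Figures were drawn with matplotlib 3.10.9.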

Additional observations from a re-analysis of the deposited data

Results flagged for a closer look

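The response of Tsc22d3 to LPS differed between genotypes by a test of the difference itself. It was 2.02 higher on the log2 scale in GILZ KO than in WT (adjusted p = 0.0007823, edgeR) and 1.43 higher in GILZ TG than in WT (adjusted p = 0.001394, edgeR). The lower level after LPS was seen in all 3 WT preparations. By design GILZ KO lacks exon 6 and GILZ TG holds a second source of Tsc22d3 in the ROSA26 locus, and their part in the difference was not tested.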

How the results depend on the processing

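Of 108 gene results over 12 comparisons, 35 passed the test. Under the alternatives 1764 values were computed, of which 22 lost and 22 gained a call in the same direction, 13 turned, having a call before or after, and the other 1707 stayed on their side of the threshold. Among the last, 60 values that were called in neither setting changed sign. The 13 that turned are all LPS responses. Tsc22d2 went to -0.20, -0.25 and -0.30 in WT, -0.14, -0.18 and -0.18 in GILZ KO and -0.24, -0.29 and -0.34 in GILZ TG with log2(TPM + 1), log2(TPM + 0.1) and library totals, Tsc22d3 in GILZ TG to -0.24, -0.24 and -0.34, and Tsc22d1 in GILZ TG to -0.59 with library totals. TPM and library totals are not centred on most genes, which by itself shifts all LPS responses. The number of the 9 genes called moved by more than 1.5 times in these cases. It went from 1 to 2 for untreated GILZ TG against WT with DESeq2, from 2 to 1 for untreated GILZ KO against GILZ TG on both log2 TPM scales and without GILZ TG replicates 1 and 2, from 0 to 1 for GILZ KO against WT after LPS with no filter and with DESeq2, from 1 to 2 for GILZ TG against WT after LPS with no filter, DESeq2 and all 18 libraries, and from 2 to 1 for GILZ KO against GILZ TG after LPS without GILZ TG replicates 1 and 2. Smaller moves were from 2 to 3 for the last comparison with no filter, the block, DESeq2 and all 18 libraries, from 9 to 8 in WT and to 7 or 8 in GILZ KO for LPS against untreated with a log2 TPM scale (in WT that of TPM + 0.1) or library totals, and from 8 to 7 (TPM, replicate 3 alone) or 9 (library totals) in GILZ TG. For the LPS responses it moved from 1 to 0 for GILZ TG against WT without these replicates, and from 0 to 1 with no filter and to 2 with DESeq2 for GILZ KO against GILZ TG. With each replicate left out it lay at 1 to 2 for GILZ TG against WT and for GILZ KO against GILZ TG in untreated cells, at 1 to 3 and 1 to 4 after LPS, and at 0 to 1 for the responses of GILZ KO against GILZ TG. Each of these highs came only without GILZ TG replicate 3. Over the whole table, the number of genes called ranged from 8 to 76 (12 in the fit reported), 20 to 313 (81) and 34 to 1224 (623) for GILZ KO against WT, GILZ TG against WT and GILZ KO against GILZ TG in untreated cells, from 10 to 93 (10), 15 to 412 (56) and 34 to 822 (316) after LPS, and from 1 to 21 (2), 0 to 2 (1) and 0 to 149 (16) for the responses. With each replicate left out the ranges were 5 to 6, 16 to 665 and 79 to 1306, 4 to 23, 15 to 1067 and 24 to 1403, and 1 to 4, 1 to 8 and 0 to 82. Library totals moved the share of higher genes among those called from 50.0% to 36.4% for GILZ KO against WT after LPS and from 50.0% to 100.0% for their responses. Same-numbered libraries correlated above 0.1 in 4 of 9 pairs of one genotype, in 2 of 9 untreated pairs and in 0 of 9 LPS pairs of different genotypes. With a replicate block, the LPS responses of GILZ KO and GILZ TG differed in 1 gene, Sgk1 (adjusted p = 0.04334), in place of 0, Per1 passed between GILZ KO and GILZ TG after LPS (adjusted p = 0.03138), and no other call of a member changed. Depth limits Hsd11b1 and Klf9 most.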
